A study of Homo sapiens with 15 samples.

Results

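Tranilast, an anti-allergic drug, and Telmisartan, a blocker of the angiotensin II type 1 receptor, were compared here in IGROV-CP20 cells treated with cisplatin. IGROV-CP20 is a line of ovarian cancer cells that resists the drug. The comparison was defined by the treatment labels and comprised 6 of the 15 libraries of the study, 3 for each drug, in which 11113 of 47634 listed genes had enough counts to be tested. All 6 cultures were kept for 24 h with the drug at 10 µM and for a further 24 h with cisplatin at 50 µM, so that no library shows a drug without cisplatin. The other 9 libraries came from cultures without treatment, with the same cisplatin alone, and with Amphotericin B at 10 µM before it. The study looked for approved drugs that make resistant cells more sensitive to cisplatin, and this comparison asks how the transcriptomes under both of them differ. The model is 1 cell line, and each drug was given at 1 dose and 1 time. The labels call the replicates biological without describing how the cultures were set up. P-values therefore measure only the spread between libraries, which was estimated over all 15 and not over the 6 compared.

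RNA was measured by sequencing near the 3′ end of transcripts (QuantSeq), and the authors deposited raw read counts per gene. Total counts were 2164344, 3000184 and 3517041 in the Tranilast libraries and 2222109, 2211259 and 2983548 in the Telmisartan libraries. A floor of 3 counts corresponded to between 8.53e-05% and 0.000139% of these libraries, which covers counting error only. Levels are given as CPM, the counts per 1e6 counts of the library, after TMM scaling, and differences as log2 Tranilast over Telmisartan with the standard error (SE).

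As background, cisplatin forms DNA adducts and enters and leaves cells partly through copper transporters such as SLC31A1 and ATP7B. The integrated stress response lowers general translation while the transcription factor ATF4 raises genes for amino acid synthesis, amino acid transport and tRNA charging. Ribosomal protein and respiratory chain genes are mostly short, highly expressed and regulated together, and many ribosomal protein messages begin with a run of pyrimidines.

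1 of the 6 libraries stood apart. Telmisartan replicate 3 differed from Telmisartan replicates 1 and 2 with a chi-square per degree of freedom of 37.8 and 44.1 over genes, against 3.43 between those replicates and between 2.24 and 2.78 among the Tranilast libraries. Mitochondrial ribosomal RNA took 10.8% and 12.9% of the counts in Telmisartan replicates 1 and 2, 3.61% in Telmisartan replicate 3 and between 2.10% and 2.53% in the Tranilast libraries. The same share was between 1.79% and 2.20% in untreated cells, between 3.41% and 13.7% with cisplatin alone and between 12.3% and 14.8% with Amphotericin B. Results are therefore given with and without Telmisartan replicate 3, and the part of this RNA share in them was not tested other than in a fit that takes it as a covariate. Of 10 listed markers of ovarian carcinoma epithelium, KRT18, KRT8 and EPCAM were counted in all 6 libraries, and KRT19 had between 0 and 14 counts. PAX8, MUC16, KRT7, CDH6 and MSLN were at 0 counts in all 6 and WT1 had at most 1, so that the list was detected only in part. Summed leukocyte markers ranged from 8.78 to 28.4 CPM of the library total with Tranilast and from 4.07 to 10.4 with Telmisartan, nearly all of it PTPRC. Summed fibroblast markers ranged from 20.8 to 51.8 with Tranilast and from 13.5 to 37.9 with Telmisartan, most of it COL1A1. Hepatocyte markers summed to between 2.56 and 16.7, and the endothelial markers VWF and CDH5 were at 0. The part of such cells in the results was not tested, and in bulk RNA fewer cells of a type and less RNA per cell cannot be told apart.

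**Figure D1:**
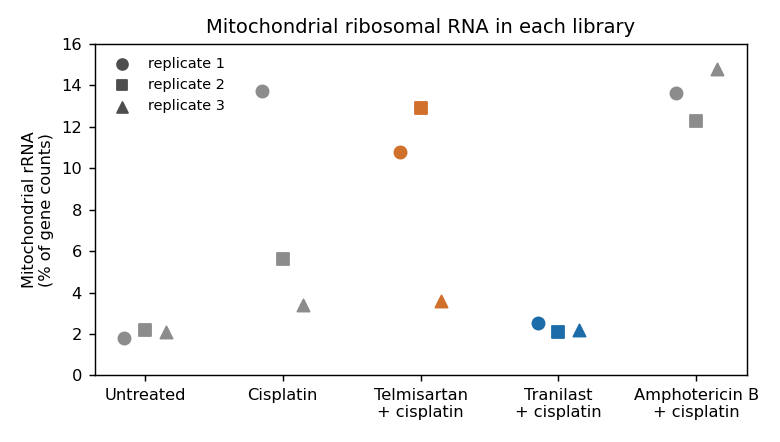
Percent of all gene counts that fell on the 2 mitochondrial ribosomal RNAs (y axis) in each of the 15 libraries, by condition (x axis), with the marker shape giving the replicate number. Telmisartan replicates 1 and 2 lie at 10.8% and 12.9%, whereas Telmisartan replicate 3 lies at 3.61%, near the 3 Tranilast libraries.

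With Tranilast, 195 genes were lower and 65 were higher than with Telmisartan by edgeR's quasi-likelihood test at a Benjamini-Hochberg adjusted p under 0.05, which is 1.75% and 0.585% of the genes tested. The lower genes included 21 of 78 ribosomal protein genes, 10 of 78 nuclear-encoded respiratory chain genes and 4 of 15 listed genes of the mitochondrial genome, and the higher genes included STAT3, IL6R and 4 of 49 genes of the integrated stress response. The calls lay close to the threshold, since the smallest adjusted p was 0.0132 and 253 of the 260 called genes had an adjusted p between 0.04 and 0.05. At an unadjusted p under 0.05, 1403 genes were lower and 1109 higher. Without Telmisartan replicate 3 the counts were 1453 lower and 1307 higher (12.8% and 11.5% of 11328 genes), and these held all 195 and all 65 of the first calls. Without any one of the Tranilast libraries, or without Telmisartan replicate 1 or 2, at most 1 gene was lower and 0 were higher by edgeR's quasi-likelihood test, with between 869 and 1180 lower and between 573 and 987 higher at an unadjusted p under 0.05.

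**Figure D2:**
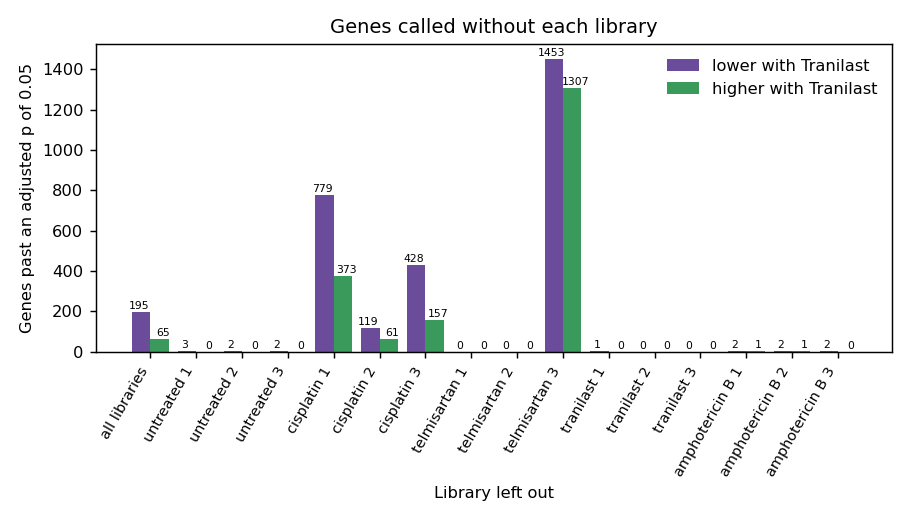
Number of genes lower (purple bars) and higher (green bars) with Tranilast at an adjusted p under 0.05 (y axis) when all 15 libraries were used and when each library was left out in turn (x axis). The counts are 195 and 65 with all libraries, rise to 1453 and 1307 without Telmisartan replicate 3 and are at most 3 without any untreated, Tranilast or Amphotericin B library or without Telmisartan replicate 1 or 2.

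Telmisartan replicate 3 was the Telmisartan library nearest to Tranilast in 191 of the 195 lower genes and in 52 of the 65 higher genes. The same count was not made over all genes tested. The median distance of the lower genes from the Tranilast mean was 1.62 and 1.65 on the log2 scale in Telmisartan replicates 1 and 2 and 0.44 in replicate 3. For the higher genes it was 1.28, 1.17 and 0.72. The libraries of the 2 drugs did not overlap in 181 of the lower and in 65 of the higher genes. Over all genes tested, the Tranilast libraries were all below the Telmisartan libraries in 10.9% and all above them in 15.1%. Protein-coding genes that were lower spanned a median of 7364 bp of the genome, those that were higher 81572 bp, and all protein-coding genes tested 32649 bp.

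2 sets of sequences are shown because the text returns to their genes. The first is the promoter of AARS1, the alanyl-tRNA synthetase and 1 of the 4 stress response genes that were higher with Tranilast, from 250 bases before to 50 after the start in RefSeq on GRCh38.p14. It lies at chr16:70289457-70289756 on the minus strand. Capitals mark the half-site TGATGNAA of the composite element bound by ATF4, found here on the opposite strand and beginning 187 bases before the start.
AARS1: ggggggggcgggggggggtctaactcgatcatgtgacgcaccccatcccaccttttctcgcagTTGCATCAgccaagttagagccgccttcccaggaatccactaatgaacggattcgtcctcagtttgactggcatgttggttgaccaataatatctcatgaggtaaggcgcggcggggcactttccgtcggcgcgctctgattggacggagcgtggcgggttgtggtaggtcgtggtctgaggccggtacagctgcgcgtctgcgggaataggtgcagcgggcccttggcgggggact

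The letters TGATGNAA, searched on both strands, were in 3.62% of all 35116 RefSeq promoters of this length and in 23.7% of the 59 promoters that matched 38 of the 49 stress response genes tested. The promoters of PHGDH, PCK2 and SLC38A2, the other stress response genes that were higher, did not hold these letters. The list was written from prior knowledge of ATF4 genes, so its higher share can follow from that choice and is no result of these data. The core of the aryl hydrocarbon receptor site, GCGTG on either strand, was in 36.5% of all promoters and in 67.8% of the 59 stress response promoters. It was also in 50.0% of ribosomal protein and 48.1% of respiratory chain promoters, and the promoters were not matched for base content. The AARS1 promoter held the core 1 time and those of PHGDH, PCK2 and SLC38A2 did not hold it. The second set is the start of ribosomal protein genes that were lower with Tranilast. These are the 30 bases from 8 before the start of RPL7A (chr9:133348210-133348239, plus strand) and RPL29 (chr3:51995874-51995903, minus strand), and capitals mark a run of pyrimidines that begins with C at the start itself.
RPL7A: tccctttcCTTTCTCTCTCCTCCCgccgcc
RPL29: gcccctttCTCTTCCggttctaggcgcttc

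A run of C followed by at least 4 pyrimidines within 5 bases of the start was in 21.1% of all promoters and in 74.4% of the 78 promoters that matched 63 of the 78 ribosomal protein genes tested. The listed starts of RPL6, which was also lower, held no such run. These matches are a description of letters and not of bound sites.

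Among called genes whose libraries did not overlap between the drugs and whose mean log2 CPM reached 3, the 10 largest decreases were all of genes that the annotation does not class as protein-coding. FOS, a protein-coding immediate early gene, differed by −2.99 but had overlapping libraries. SNORD3A, the U3 small nucleolar RNA of ribosomal RNA processing (ENSG00000263934, chromosome 17), had 1.12, 1.91 and 1.13 CPM with Tranilast and 32.2, 47.5 and 3.58 CPM with Telmisartan. The difference was −4.20 (SE 0.923, adjusted p = 0.0412 by edgeR's quasi-likelihood test), and Telmisartan replicate 3 lay far nearer to the Tranilast libraries than to the others of its group. RMRP, the RNA of the RNase MRP complex, had 3.72, 2.73 and 3.84 CPM with Tranilast and 82.7, 96.1 and 4.95 CPM with Telmisartan, a difference of −4.10 (SE 0.946). Both RNAs lack a poly(A) tail in their mature form, and both passed the threshold, as 2 of the 4 small RNAs of this kind tested. The list had a median difference of −2.86, against 0.05 over all genes tested, and of −0.44 in the fit that takes the mitochondrial ribosomal RNA share as covariate.

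The mitochondrial ribosomal and transfer RNAs among the largest decreases showed the same order of libraries. The mitochondrial messenger RNAs showed another order as a share of all counts before TMM scaling. They took 2.75%, 2.96% and 3.95% of these counts in Telmisartan replicates 1, 2 and 3. With Tranilast they took 3.58%, 3.24% and 3.14%. MT-RNR1, the 12S ribosomal RNA, had 3519, 2954 and 2892 CPM with Tranilast and 32000, 40060 and 5675 CPM with Telmisartan, a difference of −3.05 (SE 0.643, adjusted p = 0.0412). MT-TF, MT-TL1 and MT-TC, transfer RNAs of the mitochondrion, differed by −3.55, −3.00 and −2.64. Of 15 listed genes of the mitochondrial genome tested, 4 were lower, namely MT-RNR1, MT-RNR2, MT-ND1 and MT-CO1, and 0 were higher by edgeR's quasi-likelihood test. Over the list 11 differences were negative and 4 were positive, namely those of MT-ND3, MT-CO3, MT-ATP6 and MT-CYB. MT-ND1, a subunit of respiratory complex I, had 954, 872 and 780 CPM with Tranilast and 3022, 4305 and 1136 CPM with Telmisartan, so that the groups did not overlap. After TMM scaling, Telmisartan replicate 3 also lay above the Tranilast mean for this list, by a median of 0.45. In replicates 1 and 2 it was 0.65 and 0.82, so that replicate 3 was again the nearest to Tranilast.

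AL355075.4 (ENSG00000259001, chromosome 14) had 4.47, 5.45 and 8.58 CPM with Tranilast and 45.4, 66.8 and 22.02 CPM with Telmisartan. Its name and its class as antisense are those of GENCODE 29 on GRCh38. The counts were made on hg19, where the name and class of this identifier may differ. Its difference of −2.78 (SE 0.414) had the smallest adjusted p (0.0132) and kept its call in 22 of 29 other settings. It overlaps PARP2 on the opposite strand, and since the use of strand in counting is not given in the sources used here, the reads of the pair cannot be told apart. TBC1D22A-DT differed by −2.88, LINC00324 by −2.74 and MTRNR2L2, a nuclear copy of mitochondrial ribosomal RNA whose reads may come from the mitochondrial gene, by −2.75. The only other gene with an adjusted p of 0.0132 was ISG15, an interferon-induced ubiquitin-like protein, which was chosen after its values were seen. ISG15 had 72.6, 54.5 and 56.6 CPM with Tranilast and 158, 166 and 135 CPM with Telmisartan, a difference of −1.32 (SE 0.189), and all 3 Telmisartan libraries, replicate 3 included, were high. It had 37.0 ± 6.96 CPM in untreated cells (SD, n = 3) and 130, 99.1 and 96.1 CPM with cisplatin alone.

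Among the 10 largest increases, STAT3, a transcription factor of cytokine signaling (ENSG00000168610, chromosome 17), had 94.5, 133 and 116 CPM with Tranilast and 29.1, 37.6 and 65.0 CPM with Telmisartan. The difference was 1.36 (SE 0.240, adjusted p = 0.0364), and untreated cells had 124 ± 13.3 CPM (SD, n = 3). IL6R, the receptor for interleukin 6, had 16.4, 24.0 and 20.8 CPM with Tranilast and 5.10, 4.42 and 10.5 CPM with Telmisartan, a difference of 1.52 (SE 0.337, adjusted p = 0.0420). In both genes Telmisartan replicate 3 was the highest of its group, and libraries that do not overlap were a condition of their choice. NIBAN1, a stress-induced protein, had 49.5, 80.1 and 91.4 CPM with Tranilast and 16.8, 16.02 and 28.4 CPM with Telmisartan, a difference of 1.82 (SE 0.471).

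Of the remaining increases, PAFAH2, a hydrolase of platelet-activating factor and oxidized phospholipids, differed by 1.58, ATP9A, a phospholipid flippase, by 1.47, SLC17A5, the lysosomal sialic acid exporter, by 1.35 and SLC35A3, a nucleotide sugar transporter of the Golgi, by 1.26. GTF2IRD1, a transcription factor, differed by 1.43, TMCC1, a protein of the endoplasmic reticulum, by 1.33 and ENSG00000267194, which is not named in the annotation used, by 2.04. ATP9A was the one of these in which Telmisartan replicate 3, at 9.08 CPM, was the lowest library of its group. Without Telmisartan replicate 3, all 10 passed the threshold, with adjusted p between 8.87e-05 and 0.0298.

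**Figure D3:**
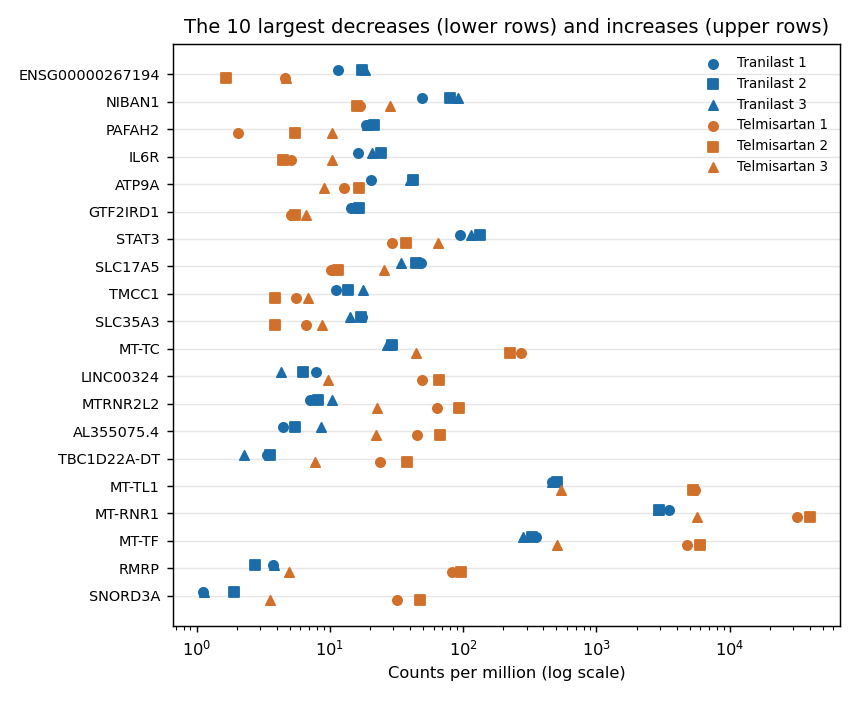
CPM on a log scale (x axis) of the 10 genes with the largest increases (upper rows) and the 10 with the largest decreases (lower rows) in each Tranilast (blue) and Telmisartan (orange) library, with the marker shape giving the replicate. In the lower rows Telmisartan replicate 3 (orange triangles) lies between the Tranilast libraries and the other Telmisartan libraries, as for RMRP at 4.95 CPM against 82.7 and 96.1.

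All 78 cytosolic ribosomal protein genes tested had a negative difference, with a median of −1.08, and 21 were lower while 0 were higher by edgeR's quasi-likelihood test. At an unadjusted p under 0.05, 77 were lower and 0 higher, and DESeq2 called 72 lower and 0 higher. Over all 11113 genes tested, DESeq2 called 721 lower and 230 higher. RPL7A (ENSG00000148303, chromosome 9), whose start is printed above, had 373, 329 and 346 CPM with Tranilast and 1334, 1363 and 425 CPM with Telmisartan, a difference of −1.57 (SE 0.337, adjusted p = 0.0412). RPL6 had 165, 146 and 170 CPM with Tranilast and 484, 498 and 196 CPM with Telmisartan, a difference of −1.29 (SE 0.277). Telmisartan replicates 1 and 2 were high and replicate 3 was near the Tranilast libraries. Over the list, the median log2 distance from the Tranilast mean was 1.36 and 1.49 in Telmisartan replicates 1 and 2, 0.06 in replicate 3 and between 0.06 and 0.18 in the untreated libraries. With cisplatin alone it was 1.78, 1.11 and 0.70. Without Telmisartan replicate 3, all 78 were lower, with a median of −1.40. Ribosomal protein genes have many processed pseudogenes, and how shared reads were assigned is not given in the sources used here.

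Subunits of the respiratory chain encoded in the nucleus had 10 of 78 genes lower, 0 higher by edgeR's quasi-likelihood test and a median of −0.87, against 60 lower and 0 higher at an unadjusted p under 0.05 and 39 and 0 by DESeq2. COX6B1, a subunit of cytochrome c oxidase, had 70.3, 62.2 and 61.8 CPM with Tranilast and 223, 280 and 76.2 CPM with Telmisartan, a difference of −1.57 (SE 0.366, adjusted p = 0.0438). UQCRH, a subunit of complex III, differed by −1.49 (SE 0.357). Telmisartan replicate 3 lay at a median of −0.05 from the Tranilast mean over the list and replicates 1 and 2 at 1.203 and 1.195. Without Telmisartan replicate 3, 70 of the 78 were lower. Under scaling by library total alone the medians of ribosomal proteins and the respiratory chain were −0.63 and −0.43, against 0.39 over all genes tested. In a fit that takes the mitochondrial ribosomal RNA share as covariate they were −0.13 and −0.02, against −0.04 over all genes.

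Mitochondrial ribosomal proteins had 6 of 77 genes lower and a median of −0.40. MRPL18 had 27.9, 28.6 and 29.8 CPM with Tranilast and 74.0, 63.0 and 49.0 CPM with Telmisartan, a difference of −1.10 (SE 0.194, adjusted p = 0.0364), and here Telmisartan replicate 3 was also clearly above the Tranilast libraries. MRPL33 differed by −1.49. Of 47 spliceosome and SR protein genes 7 were lower, among them LSM7 (−1.82) and LSM3 (−1.59), which belong to the Sm-like ring on U6 small nuclear RNA, with a list median of −0.46. Of 40 proteasome genes 2 were lower, SEM1 (−1.29) and POMP (−1.21), with a median of −0.50. Without Telmisartan replicate 3 the lower counts were 33, 21 and 28, with 1 gene higher in each of the 3 lists. In the fit with the mitochondrial ribosomal RNA covariate their medians were −0.16, −0.17 and −0.08, and those of the mitochondrial genome, heat shock, platinum and copper, and NRF2 lists were −0.32, −0.105, −0.13 and −0.105. None of 37 translation factors passed in either direction by edgeR's quasi-likelihood test, while 15 were lower and 1 higher at an unadjusted p under 0.05, DESeq2 called 8 lower, and 18 were lower without Telmisartan replicate 3. EIF5A at an adjusted p of 0.0546 and EIF4A2 at 0.0649 were nearest to the threshold.

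Protein folding genes gave 5 of 33 heat shock chaperones lower and 0 higher by edgeR's quasi-likelihood test, with a median of −0.36. HSPA8, the constitutive HSP70, had 33.1, 33.8 and 30.0 CPM with Tranilast and 169, 170 and 44.6 CPM with Telmisartan, a difference of −1.97 (SE 0.402, adjusted p = 0.0412). DNAJB4, a co-chaperone, had 9.68, 10.1 and 7.45 CPM with Tranilast and 30.1, 29.8 and 16.5 CPM with Telmisartan. The others were DNAJA1, HSPE1 and BAG1. Of 33 genes of the endoplasmic reticulum list 2 were lower, the cyclophilin PPIB (−1.02) and the translocon subunit SEC61G (−1.91), with a list median of −0.02. The heat shock median became 0.05 and that of the endoplasmic reticulum list 0.35 when libraries were scaled by their total alone, a scaling that moved the median of all genes from 0.05 to 0.39.

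Immediate early genes, which respond within minutes to growth factors and stress, had 4 of 29 lower, 0 higher and a median of −0.30. IER5 had 72.6, 64.1 and 65.2 CPM with Tranilast and 140, 146 and 109 CPM with Telmisartan, a difference of −0.97 (SE 0.178, adjusted p = 0.0412). FOSB had 10.8, 6.54 and 6.55 CPM with Tranilast and 23.0, 38.7 and 15.7 CPM with Telmisartan, a difference of −1.68 (SE 0.332). In both genes all 3 Telmisartan libraries were above all Tranilast libraries, and for IER5 cisplatin alone was higher still, with 198, 240 and 162 CPM. The other 2 were FOS, with 5.95, 1.91 and 3.16 CPM against 49.5, 34.8 and 4.13 CPM, and JUN, with 164, 150 and 150 CPM against 378, 441 and 197 CPM. FOSB overlaps ERCC1 on the opposite strand. The list median was 0.01 under scaling by library total alone, against 0.39 over all genes tested.

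Genes of the integrated stress response went the other way. Of 49 tested, 46 had a positive difference and 4 were higher with Tranilast, with 0 lower by edgeR's quasi-likelihood test and a median of 0.61, against 0.05 over all genes. At an unadjusted p under 0.05, 32 were higher and 0 lower, and DESeq2 called 12 higher and 0 lower. In 37 of the 49 every Tranilast library was above every Telmisartan library, against 15.1% of all genes tested. Over the list, the untreated libraries lay at a median of 0.26, 0.15 and 0.23 from the Tranilast mean. With cisplatin alone it was −0.92, −1.27 and −0.54, and in Telmisartan replicates 1, 2 and 3 it was −0.88, −0.87 and −0.29. Telmisartan replicate 3 was below all 3 Tranilast libraries in 40 of the 49 (81.6%), against 31.0% of all genes tested. Without it 33 were higher and 0 lower. The list median was 0.93 under scaling by library total alone, against 0.39 over all genes tested. In the fit with the mitochondrial ribosomal RNA covariate it was 0.42, against −0.04 over all genes.

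AARS1, whose promoter is printed above, had 367, 403 and 353 CPM with Tranilast and 153, 166 and 247 CPM with Telmisartan, a difference of 0.98 (SE 0.242, adjusted p = 0.0438). SLC38A2, a sodium-coupled neutral amino acid transporter, had 348, 360 and 391 CPM with Tranilast and 140, 128 and 286 CPM with Telmisartan, a difference of 0.98 (SE 0.25, adjusted p = 0.0476). PCK2, the mitochondrial phosphoenolpyruvate carboxykinase, had 78.5, 103 and 102 CPM with Tranilast and 51.0, 53.6 and 52.9 CPM with Telmisartan, a difference of 0.85 (SE 0.202, adjusted p = 0.0438). In PCK2 the 3 Telmisartan libraries lay together. PHGDH, the first enzyme of serine synthesis, had 174, 208 and 180 CPM with Tranilast and 102, 103 and 130 CPM with Telmisartan, a difference of 0.74 (SE 0.179, adjusted p = 0.0438). The untreated means of AARS1, SLC38A2, PCK2 and PHGDH were 484, 609, 124 and 236 CPM, above every Tranilast library.

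ATF4 itself had 1668, 1829 and 1541 CPM with Tranilast and 1208, 1327 and 1438 CPM with Telmisartan, and its difference of 0.34 (SE 0.249, adjusted p = 0.432) did not pass the threshold. ASNS, the asparagine synthetase, had 553, 679 and 624 CPM with Tranilast and 334, 296 and 460 CPM with Telmisartan (0.77, adjusted p = 0.0729). TRIB3, a pseudokinase, differed by 1.13 (adjusted p = 0.0700), CHAC1, an enzyme that degrades glutathione, by 1.14 (adjusted p = 0.135) and DDIT3, the transcription factor CHOP, by 0.73 (adjusted p = 0.111). In all 5 genes the drugs' libraries did not overlap, and of these TRIB3, CHAC1, DDIT3 and ASNS passed without Telmisartan replicate 3 whereas ATF4 did not (adjusted p = 0.256). DDIT3 overlaps MARS1, a member of the same list, on the opposite strand.

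**Figure D4:**
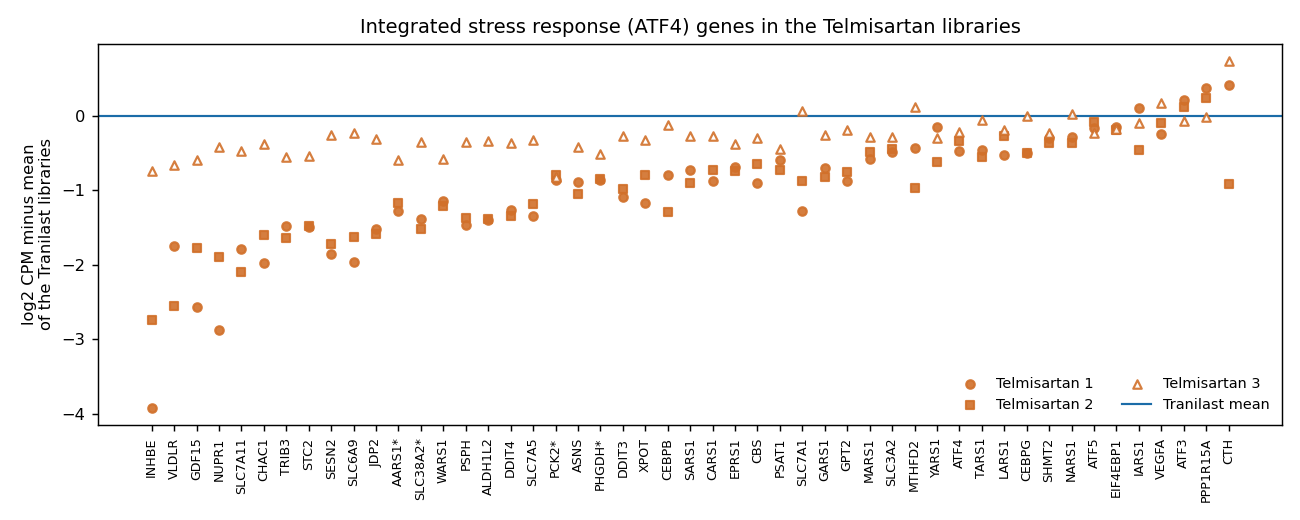
Log2 CPM of the tested genes of the integrated stress response list (x axis) in the 3 Telmisartan libraries, each minus the mean of the Tranilast libraries (y axis, blue line at 0), with genes past the threshold marked by an asterisk. Telmisartan replicates 1 and 2 (filled) lie at a median of −0.88 and −0.87 and replicate 3 (open triangles) at −0.29, below the Tranilast mean for most genes.

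In the lists of fatty acid synthesis, the insulin and IGF axis, and adhesion, all 3 Telmisartan libraries also lay below the Tranilast mean. Of 19 genes of fatty acid synthesis and desaturation 2 were higher (10.5%, against 0.585% of all genes) and 0 lower by edgeR's quasi-likelihood test, with a median of 0.38. At an unadjusted p under 0.05, 6 were higher and 0 lower, and DESeq2 called 3 higher and 0 lower. ACSL3, an acyl-CoA synthetase, had 115, 151 and 154 CPM with Tranilast and 65.8, 61.3 and 90.3 CPM with Telmisartan, a difference of 0.94 (SE 0.199, adjusted p = 0.0412). FADS1, the delta-5 desaturase, had 467, 507 and 496 CPM with Tranilast and 194, 223 and 364 CPM with Telmisartan, a difference of 0.91 (SE 0.210). Of 25 genes of the insulin and IGF axis 1 was higher, IGF2BP2, an RNA-binding protein, with 143, 179 and 162 CPM with Tranilast and 78.1, 76.8 and 97.2 CPM with Telmisartan, and GRB10, an adaptor of the insulin receptor, had a difference of 1.43 at an adjusted p of 0.0509. None of 27 adhesion, mesenchymal and guidance genes passed by edgeR's quasi-likelihood test, although the median was 0.51 and 8 were higher at an unadjusted p under 0.05 (DESeq2 called 1 higher). EFNB2 and CLDN1 were nearest to the threshold, with adjusted p of 0.0715 and 0.0772. Without Telmisartan replicate 3, 6 of the 27 genes were higher and 0 lower, against 11.5% and 12.8% of all genes tested.

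Of 625 protein-coding genes that span at least 200 kb, 12 were higher (1.92%, against 0.585% of all genes) and 3 lower (0.48%, against 1.75%). The list median was 0.30. Among the higher was NAV2, a neuron navigator, with 10.1, 11.5 and 7.67 CPM with Tranilast and 3.06, 3.31 and 3.30 CPM with Telmisartan. Telmisartan replicate 3 was the lowest of the Telmisartan libraries over this list, at a median of −0.44 from the Tranilast mean, against −0.20 and −0.10. The Tranilast libraries themselves lay at −0.17, 0.06 and 0.11, so that the libraries of the drugs overlapped here. Cisplatin alone lay at 0.02, −0.96 and −0.95, and untreated cells lay at 0.94, 0.92 and 0.96. ZNF genes gave 1 lower (ZNF330) and 1 higher (ZNF585A) of 323, which is 0.31% in each direction.

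**Figure D5:**
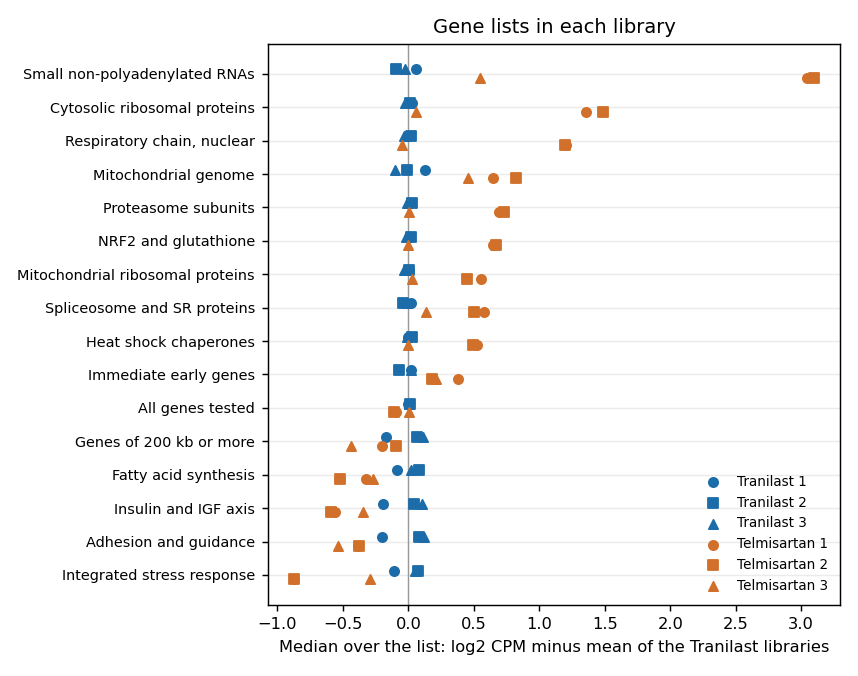
Median over each gene list of log2 CPM minus the mean of the Tranilast libraries (x axis) in each Tranilast (blue) and Telmisartan (orange) library, with the marker shape giving the replicate. For ribosomal proteins and the respiratory chain Telmisartan replicate 3 lies at 0.06 and −0.05, with the Tranilast libraries, whereas for the integrated stress response all 3 Telmisartan libraries lie below 0.

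Genes of platinum and copper handling were listed because the study concerns the export of platinum by ATP7B. ATP7B, the copper exporter to which the resistance of the line is attributed, had between 0 and 5 counts in each of the 15 libraries and was not tested. Of 16 tested 2 were lower and 0 higher by edgeR's quasi-likelihood test, with a median of −0.41. ATOX1, the copper chaperone of ATP7A and ATP7B, had 56.6, 52.9 and 32.1 CPM with Tranilast and 185, 213 and 57.0 CPM with Telmisartan, a difference of −1.68 (SE 0.408, adjusted p = 0.0438). Its highest Tranilast library nearly met Telmisartan replicate 3, and it overlaps G3BP1 on the opposite strand. GSTP1, a glutathione transferase, had 1131, 1178 and 1134 CPM with Tranilast and 3569, 3924 and 1293 CPM with Telmisartan, a difference of −1.35 (SE 0.348, adjusted p = 0.0481).

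SLC31A1, the copper importer CTR1, had 144, 157 and 143 CPM with Tranilast and 50.0, 55.2 and 127 CPM with Telmisartan, and its difference of 0.91 (SE 0.277, adjusted p = 0.0722) did not pass, whereas it passed in 7 of 29 other settings, the one without Telmisartan replicate 3 among them. SOD1, the copper-zinc superoxide dismutase, differed by −1.09 (adjusted p = 0.0570) and COX17, the copper chaperone of the mitochondrion, by −1.34 (adjusted p = 0.0947). ATP7A had at most 3.84 CPM in these 6 libraries and a difference of 0.43 (SE 0.605, adjusted p = 0.708), and it overlaps PGK1, which has far more counts. Of 33 NRF2 and glutathione genes 2 were lower, thioredoxin (TXN, −1.50) and the ferritin light chain (FTL, −0.92), with a list median of −0.49 and 16 lower and 2 higher without Telmisartan replicate 3.

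Genes of receptors and pathways that the drugs are known for were examined next. AGTR1, the receptor that Telmisartan blocks, had 0 counts in all 15 libraries. None of 7 other renin-angiotensin genes passed by edgeR's quasi-likelihood test, with LNPEP, an angiotensin IV binding peptidase, nearest (0.91, adjusted p = 0.0698). PPARG, which Telmisartan also activates in part, had between 1 and 12 counts in each library and PDK4, a PPAR target, 0 in all 15. Of 21 PPAR genes 1 was lower (4.76%, against 1.75% of all genes), the fatty acid binding protein FABP5, with 21.96, 22.9 and 17.8 CPM with Tranilast and 54.1, 46.4 and 27.8 CPM with Telmisartan. ANGPTL4, a further target, differed by 0.24 (SE 0.284, adjusted p = 0.645).

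Tranilast is known as an agonist of the aryl hydrocarbon receptor and as an inhibitor of TGF-beta responses. CYP1A1, the classical target of that receptor, had between 0 and 6 counts in each library. CYP1B1 had 26.8, 19.9 and 17.8 CPM with Tranilast and 18.9, 17.1 and 18.4 CPM with Telmisartan (0.23, SE 0.232, adjusted p = 0.583), and TIPARP differed by −0.23 (SE 0.399, adjusted p = 0.769). None of the 7 genes of this list and none of 25 TGF-beta components and targets passed by edgeR's quasi-likelihood test, with ID2 at an adjusted p of 0.0558 and TAGLN at 0.0613. ID2 and TAGLN had Telmisartan replicate 3 within the range of the Tranilast libraries or below it. Without that library 3 of the 25 genes of the TGF-beta list were lower and 4 higher, against 12.8% and 11.5% of all genes tested.

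In the lists of DNA damage, cell cycle and autophagy, edgeR's quasi-likelihood test called at most 2 genes each. Of 31 p53 targets GADD45B was lower, with 8.56, 7.09 and 9.48 CPM with Tranilast and 48.5, 42.5 and 10.2 CPM with Telmisartan. Of 47 genes of base and nucleotide excision repair the glycosylase MPG was lower (−1.03). None of 43 genes of the Fanconi anaemia and recombination list passed by edgeR's quasi-likelihood test. BRCA1 had 349, 338 and 298 CPM with Tranilast and 98.0, 99.4 and 267 CPM with Telmisartan, a difference of 1.07 (SE 0.321, adjusted p = 0.0698) that passed without Telmisartan replicate 3 (adjusted p = 0.000199). Of 36 mitosis genes UBE2C (−1.14) and PTTG1 (−1.25), both regulators of anaphase, were lower, whereas the list median was 0.05. Of 44 autophagy genes LAMTOR5 was lower (−1.03) and ULK2 higher (1.14). DESeq2 called 1 lower and 3 higher among the p53 targets, 4 and 1 among the excision repair genes, 0 and 1 in the Fanconi list, 3 and 0 among the mitosis genes and 1 and 4 among the autophagy genes. When Telmisartan replicate 3 was left out, edgeR called 2 and 8, 6 and 2, 1 and 7, 5 and 3, and 7 and 10 in the same order. None of 37 G1/S genes, 30 cholesterol genes, 20 NF-kappaB genes and 28 hypoxia genes passed by edgeR's quasi-likelihood test. At an unadjusted p under 0.05 they had 0, 3, 3 and 3 genes lower and 0, 3, 2 and 4 higher, and DESeq2 called 3 cholesterol genes lower and none of the others. Without Telmisartan replicate 3 they had 1, 5, 2 and 3 genes lower and 0, 2, 4 and 5 higher. For all counts of this paragraph without that library, the shares over all genes tested were 12.8% lower and 11.5% higher. At an unadjusted p under 0.05 with all libraries, 1403 of all 11113 genes were lower and 1109 higher. DESeq2 called 721 of the 11113 genes lower and 230 higher. By edgeR's quasi-likelihood test with all libraries, 1.75% of all genes were lower and 0.585% higher.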

How the data were processed

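RNA was measured by 3′ end sequencing (QuantSeq, 100 ng of RNA, single reads of 75 bp) in 15 libraries, 3 per condition. The authors deposited 1 table per library with raw read counts per Ensembl gene, without normalization or filtering. The labels list STAR 2.3.0, HTSeq and hg19, and the annotation and the use of strand are not given in the sources used here. Drug and cisplatin doses are from the study's methods.

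Names, spans and biotypes came from GENCODE 29 for 45776 of 47634 identifiers, and promoters from RefSeq on GRCh38.p14, with no gene coordinates moved between builds. Genes kept by filterByExpr were tested in edgeR 4.0.16 (R 4.3.3) with TMM factors and a quasi-likelihood fit over all 15 libraries, which share an estimate of the spread. P-values were adjusted over all 11113 genes by the method of Benjamini and Hochberg, with a threshold of 0.05. The SE was taken as the absolute log2 difference divided by the root of F, and log2 CPM used a prior count of 2. Alternatives used limma 3.58.1 and DESeq2 1.42.0, and summaries used Python 3.11.15. The quasi-likelihood and likelihood ratio tests of edgeR, limma-voom with and without library weights, and DESeq2 were run on simulated counts with known differences. The other settings and the summaries were not.

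The comparison and the gene lists were chosen with earlier results of these data known. Named genes were the 10 largest increases and decreases among called genes whose mean log2 CPM reached 3 and whose libraries did not overlap, the 2 genes with the smallest adjusted p in each list, and fixed genes of copper transport, drug targets and the stress response. Of 91 named genes with an annotation, 24 overlap another gene with at least 10% of their counts.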

Additional observations from a re-analysis of the deposited data

How the results depend on the processing

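Of the named genes past the threshold, 56 in number, 0 changed sign in 29 other settings, but the counts of calls depended on most of them. The lower and higher counts, 195 and 65, became 661 and 379 with edgeR's likelihood ratio test, 721 and 230 with DESeq2, 6 and 1 with limma-voom, and 1949 and 2053 with limma-voom and library weights. They were 112 and 29 with upper quartile factors, 1 and 0 with scaling by library size only (509 and 2373 at an unadjusted p under 0.05), 686 and 322 with no filter beyond 1 count, and 102 and 287 when the mitochondrial ribosomal RNA share was a covariate. A fit of only the 6 libraries gave 0 and 0 (1500 and 919 at an unadjusted p under 0.05). RLE factors, a filter of CPM above 1 in 3 libraries and a robust fit gave counts within 1.5 times. Leaving out 1 library gave between 0 and 1453 lower and between 0 and 1307 higher genes. The highest counts came without Telmisartan replicate 3. Without cisplatin replicate 1, 2 or 3 the counts were 779 and 373, 119 and 61, and 428 and 157, and without any other library at most 3 and 1. The cause of these changes was not tested.

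The labels do not say whether the replicate numbers pair the libraries. The correlations of the deviations of same-numbered Tranilast and Telmisartan libraries were −0.05, 0.07 and −0.05. Those of libraries with unlike numbers lay between −0.09 and 0.10. With 3 libraries per drug, and Telmisartan replicate 3 apart from its group, these values cannot show whether a pairing exists. A replicate block gave 312 and 131 in the fit of all libraries and 0 and 0 in the fit of only the 6 libraries (1269 and 927 at an unadjusted p under 0.05). Totals between 2164344 and 3517041 counts limit the precision for genes of a few CPM, such as ATP7A.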
